A study of Mus with 2 samples.

Results

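Rpl39l and Baiap2l1 are 2 of the 32285 features counted on sections of CT26 tumors, and they are described here as the genes that mark the tumor cells in this model. CT26 is a colon carcinoma cell line that arose in a BALB/c mouse, and it grows as a tumor under the skin of mice of that strain. Both genes were selected by name, and every UMI assigned to their symbols on the control and rIL7 matrices was used. A unique molecular identifier (UMI) tags a captured molecule, so that a molecule is counted once whatever the length of its gene. Both tumors came from balb/c mice labelled 6 to 8 weeks old and were taken on day 15 after transplantation. The control mouse received PBS. The rIL7 mouse received 10 µg of recombinant mouse IL7 (rIL7) by intraperitoneal injection on day 11 and again on day 13. Each group held 1 section, so a difference between the sections has no replicate check, no test was possible, and the mouse, the section and the treatment cannot be told apart. A subcutaneous transplant of 1 cell line is also the limit of the model, since the host supplies all stroma and immune cells.

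Rpl39l encodes a close copy of Rpl39, a small protein that lines the exit tunnel of the large ribosomal subunit. Rpl39 is made in nearly all tissues, while Rpl39l is best known from male germ cells and from tumor cell lines. Baiap2l1, also called IRTKS, belongs to the I-BAR family of adaptor proteins, which bind curved plasma membrane and link it to actin assembly in protrusions and in the microvilli of epithelial cells. In GRCm38, Rpl39l (ENSMUSG00000039209) lies on chromosome 16 from 10170197 to 10174911 with 2 RefSeq transcripts, and no other annotated gene overlaps it. Baiap2l1 (ENSMUSG00000038859) lies on chromosome 5 from 144264525 to 144358112, where 3 other genes overlap it, namely the protein-coding Bri3 and the long noncoding Gm15708 and Dmrt1i. Reads of Rpl39l could in part be assigned to its near copy Rpl39, or the reverse, and how such reads were counted is not given in the sources used here.

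RNA was measured with Visium, an assay that lays a frozen 10-µm section over an array of barcoded spots, which take up its polyadenylated molecules. A spot covers a small region and often several cells, not all of them tumor cells, so its level cannot separate fewer tumor cells from less RNA per tumor cell. The control section kept 2219 spots with 22951678 UMIs and the rIL7 section kept 1950 spots with 25729233 UMIs. The median spot held 9623 UMIs on the control section and 12921.5 on the rIL7 section. The sections shared 1702 spot barcodes, which name positions of the array and not cells. Most markers of colon epithelium were low on both sections. The 17 genes summed to 3005 UMIs (131 CPM) on the control and 2320 (90.2 CPM) on the rIL7 section, and 1 of them, the keratin Krt20, passed the minimum for correlations used further on. Epcam, the epithelial adhesion molecule, had 18 UMIs on the control and 9 on the rIL7 section, and the keratin Krt8 had 4 and 0. Epcam and Krt8 were picked as examples and held few of the UMIs of the list, so they do not stand for all of it. Across the 17 genes of that list, 5 had no UMI on the control and 3 on the rIL7 section.

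Both genes were present across nearly the whole of both sections, and both were lower on the rIL7 section. Rpl39l had 9910 UMIs on the control section, or 432 per 1000000 UMIs of the section (CPM; 95% Poisson interval 423 to 440.4). It had 9740 UMIs on the rIL7 section, or 379 CPM (371 to 386). The ratio of rIL7 to control was 0.877 (95% exact binomial interval 0.852 to 0.902). These intervals cover counting error only. Baiap2l1 had 19772 UMIs and 861 CPM (849 to 874) on the control section. Its 17090 UMIs on the rIL7 section came to 664 CPM (654 to 674), a ratio of 0.771 (0.755 to 0.787). Of the 7613 genes that averaged 20 CPM or more, 448 had a ratio of rIL7 to control of 0.8 or less, which is 5.88%. Baiap2l1 passed that size and Rpl39l did not. A smaller ratio than that of Baiap2l1 was found for 4.18% of the genes, and a smaller ratio than that of Rpl39l for 15.9%.

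Regions of a section also differed from each other. For a view of this spread, 4 quadrants were cut along the median array row and column of a section, and they are not replicates. Rpl39l ranged from 397 to 475 CPM over the control quadrants and from 332 to 404 CPM over the rIL7 quadrants, so that the ranges overlapped. Baiap2l1 ranged from 821 to 875 CPM over the control quadrants and from 587 to 775 CPM over the rIL7 quadrants, and these ranges did not overlap. Quadrant ranges were not computed for all genes, so how common such a separation is between these sections is not known. Since Baiap2l1 was lower by more than Rpl39l, the share of Rpl39l among the UMIs of both genes was 33.4% (32.9 to 33.9) on the control and 36.3% (35.7 to 36.9) on the rIL7 section.

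The count of Rpl39l per spot had a mean of 4.47 on the control section, with a maximum of 24. The rIL7 mean was 4.99 per spot and the maximum 20. The larger mean in the section with the lower CPM goes with its greater depth. At least 1 UMI of Rpl39l was seen in 95.7% of control spots and 95.8% of rIL7 spots. For Baiap2l1 the shares were 98.9% and 98.8%. To compare spots at equal depth, each spot was reduced at random to 5900 UMIs (thinning). Shallower spots were left out, 217 on the control and 81 on the rIL7 section. Rpl39l was then seen in 90.4% (89.0 to 91.7) of control spots and 88.1% (86.5 to 89.5) of rIL7 spots, and Baiap2l1 in 99.1% (98.6 to 99.5) and 97.1% (96.2 to 97.8). A spot without either gene was rare. There were 2 such spots among 2002 thinned control spots and 8 among 1869 thinned rIL7 spots, or 0.0999% and 0.428%. RNA of Rpl39l or Baiap2l1 that spread between spots was not measured, and a nearly absent gene cannot gauge it. Rpl10l, a ribosomal protein copy known from testis, had 2 UMIs in the whole control section and 0 on the rIL7 section. A count of 0 allows up to 3 UMIs.

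**Figure D1:**
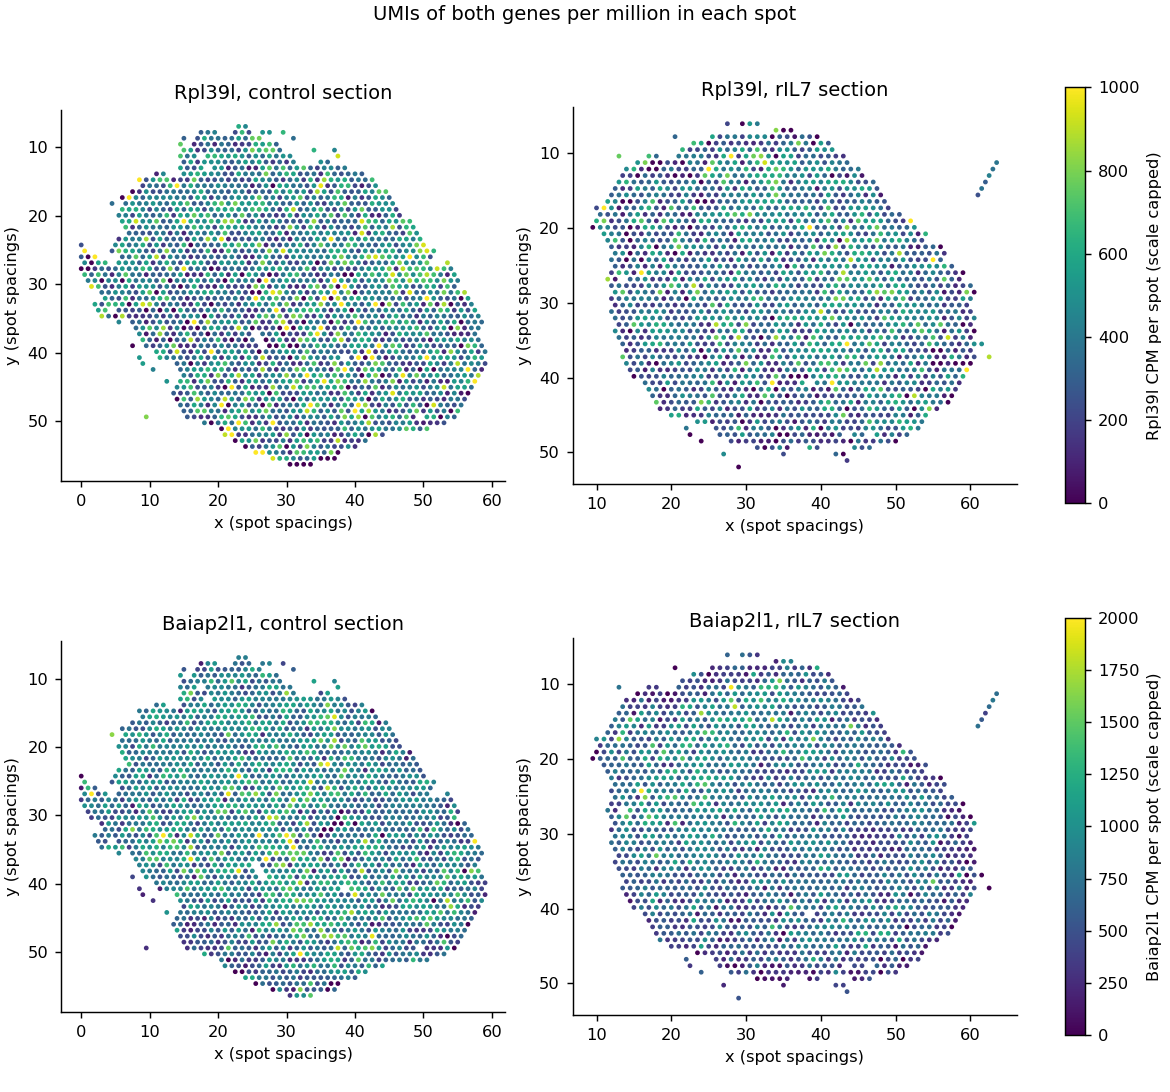
Rpl39l (top) and Baiap2l1 (bottom) in every kept spot of the control (left) and rIL7 (right) sections. Axes are positions on the array in spot spacings, and color is UMIs per 1000000 UMIs of the spot (CPM), capped at the top of the scale; Baiap2l1 is visibly lower along the rim of the rIL7 section, and neither gene is missing from a quadrant.

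The other members of both gene families took different directions between the sections. Rpl39, the broadly expressed partner of Rpl39l, had 1989 CPM on the control and 2081 CPM on the rIL7 section, a ratio of 1.05 (1.03 to 1.06). Rpl39l therefore made up 17.8% (17.5 to 18.2) of the UMIs of Rpl39l and Rpl39 on the control and 15.4% (15.1 to 15.7) on the rIL7 section. Among other copies of ribosomal protein genes, Rps27l had 670.5 and 545 CPM, a ratio of 0.812 (0.794 to 0.831). Rpl22l1 had 511 and 540.0 CPM, with a ratio of 1.06. Rpl36al had 551 and 537 CPM, with a ratio of 0.976. Rpl7l1 had 105 and 96.9 CPM, with a ratio of 0.920. Rpl3l, a copy known from striated muscle, had 18 UMIs on the control and 27 on the rIL7 section. In the I-BAR family, Baiap2 (IRSp53) had 134 and 128 CPM, a ratio of 0.9505 (0.905 to 0.999). Mtss1 had 12.9 and 17.8 CPM and Mtss2 8.23 and 6.30 CPM. Baiap2l2 had 2 UMIs on the control and 3 on the rIL7 section, so Baiap2l1 supplied most I-BAR family UMIs in both. Of the genes that overlap Baiap2l1, Bri3 had 237 and 206 CPM, Gm15708 had 9 and 7 UMIs, and Dmrt1i had 0 in both.

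Depth of the spot was related to these genes in different ways. When control spots were split into 5 groups from shallow to deep, Baiap2l1 stayed between 848 and 879.5 CPM. Rpl39l ranged from 405 to 457 CPM and was highest in the deepest group. In the same groups Rpl39 went from 1416 CPM in the shallowest to 2756 CPM in the deepest. Rpl39l on the rIL7 section went from 325 CPM in the shallowest to 399.9 CPM in the deepest group. There Baiap2l1 was lowest at 588 CPM in the shallowest group and highest at 711 CPM in the middle group. The part of depth in the differences above was not tested.

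The sections differed in how both genes varied with distance from the tissue outline. Distance was counted in spot steps from the outer outline of the largest piece of tissue, which held 2207 control and 1929 rIL7 spots. Rpl39l had, on the control section, 458 CPM at step 1, then 422, 438, 433, 441, 428 and 446 CPM moving inward, and 401 CPM at 13 or more steps. Control Rpl39l was thus highest at step 1 (431 to 487) and lowest in the core (382 to 421), with intervals that did not overlap. The levels between showed no steady trend. Rpl39l had, on the rIL7 section, 311 CPM at step 1, 301 at step 2, 329 at step 3, 360.3 at step 4, 382 at steps 5 to 6, 383 at steps 7 to 9, 433 at steps 10 to 12 and 405 deeper in. From step 10 inward, the intervals of the sections overlapped for Rpl39l, so the lower Rpl39l of the rIL7 section lay at steps 1 to 9.

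Baiap2l1 had an inward gradient in both sections. The control levels were 755 CPM at step 1, 775 at step 2, 784 at step 3, 849 at step 4, 851 at steps 5 to 6, 895 at steps 7 to 9, 886 at steps 10 to 12 and 974 at 13 or more steps. The rIL7 levels were 407 CPM at step 1, 489.6 at step 2, 621 at step 3, 668 at step 4, 723 at steps 5 to 6, 748 at steps 7 to 9, 704 at steps 10 to 12 and 698 deeper in. The rIL7 section was lower at every distance, with intervals that did not overlap, and most of all at the rim. These intervals cover counting error only. Levels by distance were not computed for all genes, so how common such a separation is between these sections is not known. The share of Rpl39l among the UMIs of both genes was largest at step 1, at 37.8% (36.0 to 39.6) on the control and 43.4% (40.6 to 46.1) on the rIL7 section. On the control section it was 29.2% (28.0 to 30.4) at 13 or more steps, and on the rIL7 section it was lowest at 33.8% (32.5 to 35.2) at steps 7 to 9. Median depth went from 10181 UMIs at step 1 to 8348 in the core of the control section, and from 9489.5 to 15825 in the core of the rIL7 section.

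**Figure D2:**
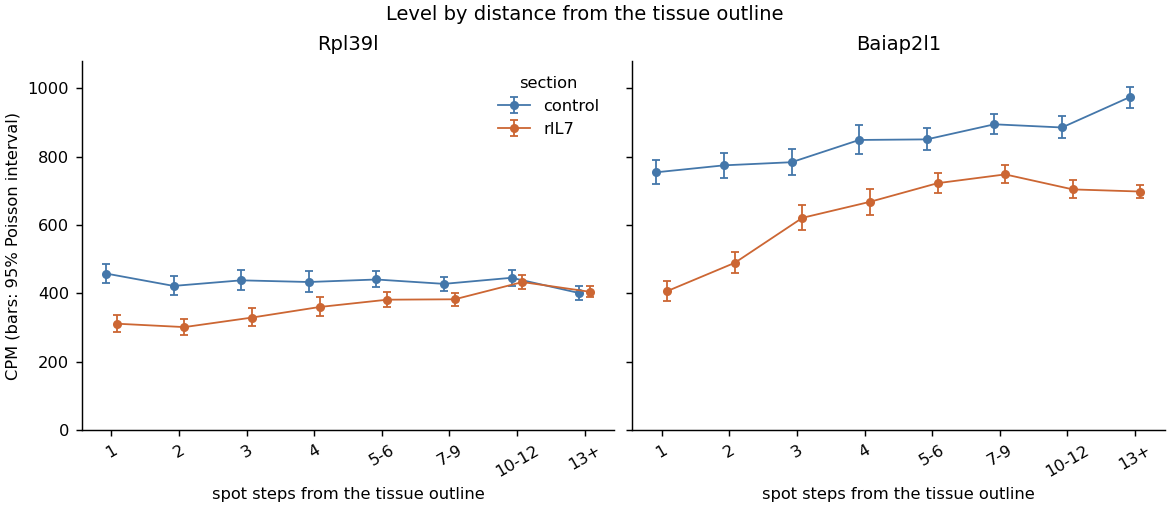
CPM of Rpl39l (left) and Baiap2l1 (right) against steps from the tissue outline, for the control and rIL7 sections, with 95% Poisson intervals as bars. Rpl39l goes from 458 at the rim to 401 CPM in the core of the control section, without a steady trend between. For rIL7 it goes from 311 at the rim to 433 CPM further in, while Baiap2l1 is lower at the rim in both sections.

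With spots of steps 1 and 2 taken as the edge (401 control and 330 rIL7 spots) and the rest as interior, Rpl39l had 440.2 CPM at the edge and 429 in the interior of the control section. That ratio of 1.03 (0.976 to 1.08) did not differ from 1 beyond counting error. Rpl39l on the rIL7 section had 306 CPM at the edge and 392 in the interior, a ratio of 0.780 (0.734 to 0.829). Baiap2l1 had 765 CPM at the edge and 886 in the interior of the control section, a ratio of 0.863 (0.831 to 0.895). The rIL7 values were 451 and 704 CPM, a ratio of 0.641 (0.610 to 0.674). Over all genes, 6.95% of 7524 had a ratio of 0.8 or less at the control edge, and neither gene passed that size there. At the rIL7 edge 16.5% of 7655 genes passed it, and both genes did. Only 2.90% of the genes had a lower ratio at the rIL7 edge than Baiap2l1, against 13.9% for Rpl39l. Within quadrants, the ratio of Baiap2l1 was below 1 in 4 of 4 quadrants of both sections, from 0.7998 to 0.915 on the control and from 0.551 to 0.711 on the rIL7 section. For Rpl39l it ranged from 0.917 to 1.08 on the control and from 0.699 to 0.966 on the rIL7 section.

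Other transcripts differed at the same edges. At the rIL7 edge, the 12 macrophage genes summed to 10008 CPM against 5360 in the interior, and the 7 MHC class II genes to 7960 against 2509 CPM. The 12 T cell genes summed to 651 against 265 CPM, and the 10 fibroblast genes to 3491 against 2004 CPM. The 7 B and plasma cell genes summed to 771 against 24.5 CPM. None of these lists had a gene without a UMI on the rIL7 section. At the control edge, macrophage genes summed to 5166 against 4930 CPM and MHC class II genes to 3265 against 2751 CPM. Keratinocyte genes summed to 121 against 41.2 CPM there, with 1 of 7 genes at 0 in the section. Other lists were lower at the edge, on the control section neutrophil genes with 85.4 against 159 CPM and skeletal muscle genes with 21.9 against 90.9 CPM. At the rIL7 edge neutrophil genes summed to 210.3 against 271 CPM and hypoxia genes to 4874 against 5660 CPM. Rpl39, in contrast to Rpl39l, had a ratio of edge to interior of 1.23 on the control and 1.08 on the rIL7 section, and Baiap2 had 0.937 and 0.964. The part of these transcripts in the levels of Rpl39l and Baiap2l1 was not tested. With the edge left out, rIL7 over control was lower for both genes still, with log2 ratios of -0.13 for Rpl39l and -0.33 for Baiap2l1, against -0.19 and -0.38 over all spots.

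Spots richest in transcripts of other tissues held UMIs of both genes. The 20 control spots with the largest share of skeletal muscle transcripts had 2299 CPM of these genes against 61.4 in the other spots. They held Rpl39l at 423 CPM (329 to 535) and Baiap2l1 at 932 CPM (789.7 to 1092), against 432 and 861 CPM in the other spots. The 20 control spots richest in keratinocyte transcripts held Rpl39l at 429.5 CPM (313 to 575) and Baiap2l1 at 735 CPM (580.0 to 919), against 432 and 862 CPM in the other spots. The 20 rIL7 spots richest in B and plasma cell transcripts, at 12089 CPM of these genes, held Rpl39l at 340.1 CPM (259 to 439) and Baiap2l1 at 421 CPM (329.9 to 529). The other rIL7 spots had 379 and 666 CPM, so Baiap2l1 was lower in these 20 spots beyond counting error. B and plasma cell genes lay mostly at the rIL7 edge, with 771 against 24.5 CPM in the interior. Baiap2l1 had 451 CPM over all rIL7 edge spots, and the position of the 20 spots was not taken into account. All the groups of 20 spots were chosen after the values were seen. No quadrant and no distance from the outline was free of either gene. Tissue without CT26 cells was not identified by other means, so the level of either gene in such tissue was not measured here.

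Across the spots of a section, Rpl39l and Baiap2l1 had a correlation near 0. Most of the variance of both genes per thinned spot was that of random counting, as given below. A rho near 0 therefore cannot show whether the underlying levels of both genes agree. In spots thinned to 5900 UMIs, Spearman's rho between them was -0.0274 over 2002 control spots and 0.0347 over 1869 rIL7 spots. Over 6 random thinnings it ranged from -0.0436 to 0.0260 on the control section, so its sign there depended on the draw, and from 0.0188 to 0.0759 on the rIL7 section. Without thinning, the correlation of depth-adjusted residuals was 0.00569 on the control and 0.0864 on the rIL7 section. Among rIL7 interior spots rho was -0.0156. Spots of a section share a library and neighboring spots share cells and diffused RNA, so these are descriptions and have no p-value.

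Spots grouped by the count of one gene differed little in the other, with the same limit from random counting. Control spots with no Rpl39l UMI had a mean of 5.08 Baiap2l1 UMIs, and those with 5 or more had 5.02. The lowest and highest means over the 6 groups were 4.96 and 5.28. The rIL7 groups had means between 3.71 and 4.13. Of 490 control spots with more than 3 Rpl39l UMIs, 16.1% also had more than 7 Baiap2l1 UMIs, against 16.3% of all control spots. For rIL7, 22.7% of 344 such spots had more than 5 Baiap2l1 UMIs, against 22.2% of all.

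**Figure D3:**
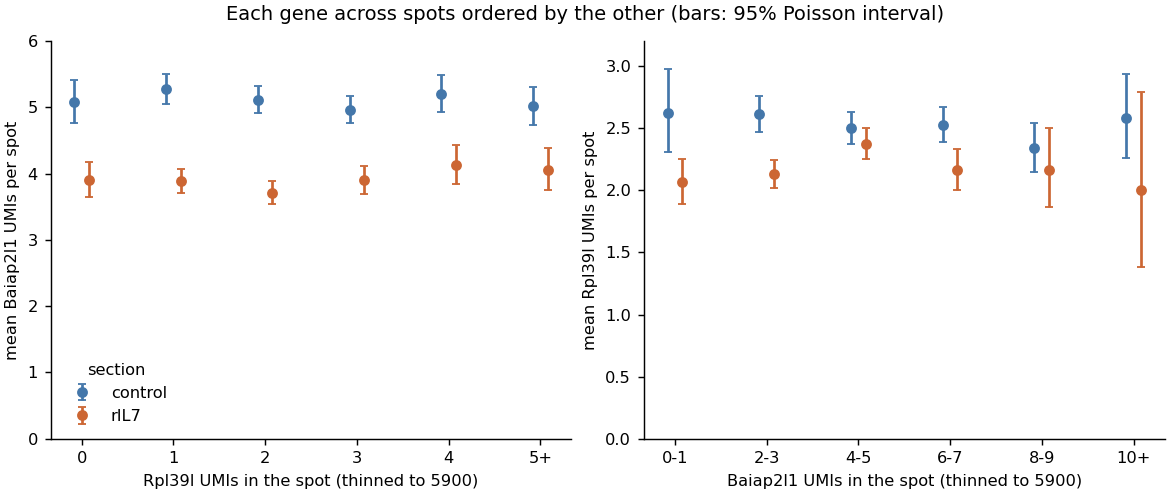
Mean UMIs of one gene in spots grouped by the UMIs of the other, after thinning each spot to 5900 UMIs, on the control and rIL7 sections, with 95% Poisson intervals as bars. Baiap2l1 stays between 4.96 and 5.28 (control) and between 3.71 and 4.13 (rIL7) as Rpl39l goes from 0 to 5 or more. Most of the variance in both counts was that of random counting, which limits what the groups can show.

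Both genes had low counts per thinned spot, and the part of this in their correlation was not tested. The thinned variance of Rpl39l was 1.05 times its mean on the control and 1.06 times on the rIL7 section, so that 4.77% and 5.45% of its variance lay above that of random counting. For Baiap2l1 the variance was 1.19 and 1.18 times the mean, and 16.04% and 15.3% of it lay above counting. Among genes with a mean of 2 to 6 thinned UMIs, 81.4% on the control and 79.8% on the rIL7 section had a lower variance over mean than Baiap2l1. For Rpl39l these shares were 38.6% and 43.75%. Pairs of genes whose products work together gave a wide range of values. The MHC class II chains H2-Aa and H2-Eb1 had rho of 0.474 on the control and 0.484 on the rIL7 section, and the complement genes C1qa and C1qb had 0.282 and 0.334. H2-Aa and H2-Eb1 had means of 1.94 and 1.88 thinned UMIs on the control section, against 2.52 for Rpl39l and 5.11 for Baiap2l1. The variance of H2-Aa and H2-Eb1 above counting was not compared, so their rho does not gauge the part of low counts. The collagen chains Col1a1 and Col1a2 had 0.0845 and 0.180. The ribosomal protein genes Rpl3 and Rpl7 had 0.00368 and 0.0111. Rpl39l had rho of 0.0442 and 0.0683 with Rpl39, and Baiap2l1 had 0.0104 and 0.0322 with Baiap2.

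Averaging over larger areas showed where each gene had structure. The Baiap2l1 count of a spot had rho of 0.195 on the control and 0.199 on the rIL7 section with the Baiap2l1 sum of its 6 neighbors. For Rpl39l the same measure was 0.0259 on the control and 0.162 on the rIL7 section. Across the genes, a spot and its neighbors had rho of -0.0356 and -0.0176 on the control and of 0.0658 and 0.0589 on the rIL7 section. In tiles of 8 array rows by 16 array columns with at least 20 spots, Rpl39l ranged from 321 to 625 CPM over 38 control tiles and from 259 to 506 CPM over 33 rIL7 tiles. Baiap2l1 ranged from 574 to 1044 CPM and from 393 to 880.1 CPM. Across tiles the genes had rho of -0.241 on the control and 0.436 on the rIL7 section. With interior spots alone, these were -0.209 over 32 tiles and 0.209 over 28 tiles, and with tiles of 4 rows by 8 columns they were -0.0777 and 0.343.

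Few genes were tied to both, and on the control section none reached the limit used. Less of the variance of Rpl39l than of Baiap2l1 lay above counting, and the part of this in the following counts was not tested. Spearman's correlation was computed for the 5401 other genes with a mean of at least 0.2 thinned UMIs in both sections. As for the control, 0 genes (0%) had rho of at least 0.1 with both, and 0 (0%) had rho of at most -0.1 with both. At a limit of 0.05 these counts were 3 and 4. For Rpl39l alone the control counts were 0 and 0, with values from -0.0814 to 0.0942. As for rIL7, 3 genes (0.0555%) had rho of at least 0.1 with both, and 4 genes (0.0741%) had rho of at most -0.1 with both. For Rpl39l alone the rIL7 counts were 4 (0.0741%) and 5 (0.0926%). Baiap2l1 was tied to more genes, 20 (0.37%) and 23 (0.426%) on the control and 80 (1.48%) and 111 (2.06%) on the rIL7 section. In interior spots these counts were 14 and 15 on the control and 11 and 23 on the rIL7 section. After tile means were removed they were 5 and 3 on the control and 6 and 18 on the rIL7 section. Residuals of all UMIs, which keep the full depth, gave 0 and 0 genes tied to both on the control and 29 and 69 on the rIL7 section. Among rIL7 interior spots, and after tile means were removed, the counts for both were 0 and 0.

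The 3 genes positively tied to both on the rIL7 section were S100a6, a calcium-binding protein, Il1rl1, the receptor of interleukin 33, and Spp1, the secreted phosphoprotein osteopontin. S100a6 had rho of 0.133 with Rpl39l and 0.161 with Baiap2l1 in that section, and 0.0491 and -0.0046 on the control section. Il1rl1 had 0.121 and 0.232 on the rIL7 section, and 0.0165 and 0.159 on the control section. Spp1 had 0.117 and 0.253 on the rIL7 section, and -0.009 and 0.180 on the control section. Behind them by the smaller rho came Rps20, Cebpd, Rpl13, Slit3, Eef1a1, Clu and Ctsl. In rIL7 interior spots Spp1 had rho of 0.0809 and 0.185 with Rpl39l and Baiap2l1, Il1rl1 had 0.0844 and 0.167, and S100a6 had 0.0832 and 0.0399.

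The 4 genes negatively tied to both on the rIL7 section were Tmsb4x, which encodes the actin-binding thymosin beta 4, and the MHC class II genes Cd74, H2-Eb1 and H2-Aa. Tmsb4x had rho of -0.1345 with Rpl39l and -0.274 with Baiap2l1, against 0.0169 and -0.117 on the control section. Cd74, the class II invariant chain, had -0.133 and -0.244 on the rIL7 section. On the control section Cd74 had -0.0618 and -0.118, and it was there the lowest of all genes by the larger of its values. H2-Aa had -0.110 and -0.254 on the rIL7 section, and -0.0437 and -0.0735 on the control section. In rIL7 interior spots Cd74 had -0.0737 and -0.125. The next genes on the rIL7 section were H2-Ab1, Samhd1, Laptm5, H2-DMb1, H2-Q7 and Tap1, most of them of antigen presentation.

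**Figure D4:**
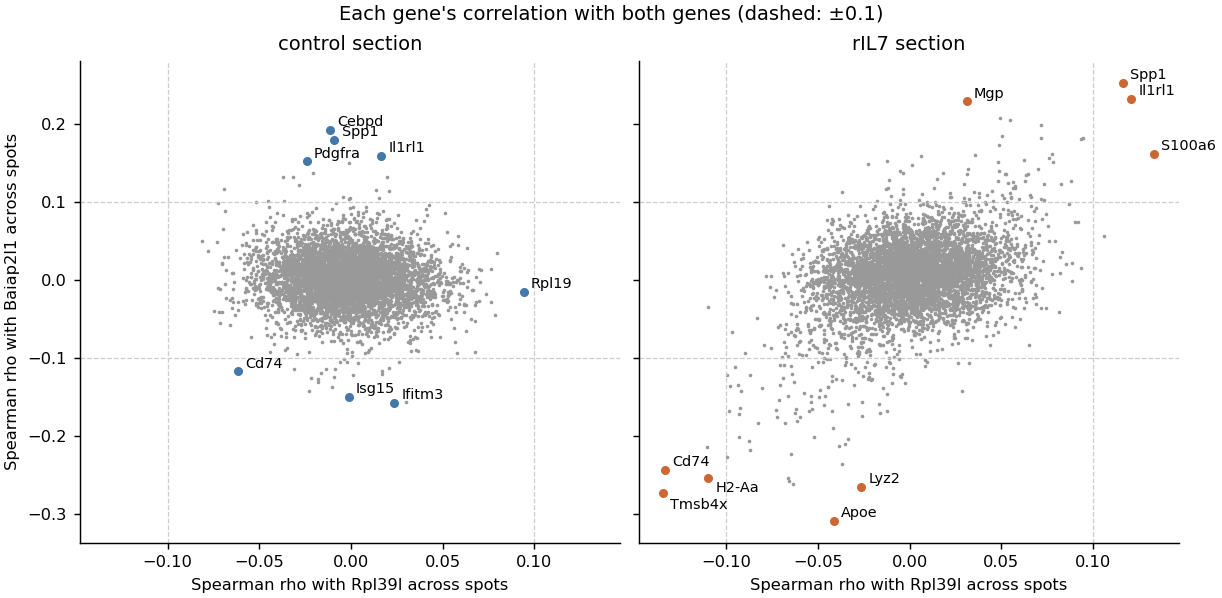
Spearman's rho of each of 5401 genes with Rpl39l (horizontal) and with Baiap2l1 (vertical) across thinned spots of the control (left) and rIL7 (right) sections, with dashed lines at 0.1 and -0.1. The control cloud reaches further along Baiap2l1 than along Rpl39l, and the rIL7 cloud leans from Cd74 and Tmsb4x at the lower left to Spp1, Il1rl1 and S100a6 at the upper right.

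The genes most like Baiap2l1 on the control section were Cebpd, a transcription factor gene, with rho of 0.193, Spp1 with 0.180, Il1rl1 with 0.159, Pdgfra, a growth factor receptor gene, with 0.152, and Clu, which encodes clusterin, with 0.149. Those of the rIL7 section were Spp1 with 0.253, Il1rl1 with 0.232 and the matrix protein gene Mgp with 0.229. The genes least like it on the control section were Ifitm3 with -0.158, Bst2 with -0.157 and Isg15 with -0.150, and on the rIL7 section these had 0.0376, -0.0993 and -0.0857. Those of the rIL7 section were Apoe with -0.309, Tmsb4x with -0.274 and Lyz2 with -0.265. Apoe and Lyz2 are abundant in macrophages. Positive ties at the limit of 0.1 were shared for 11 genes, 55.0% of the control list and 13.8% of the rIL7 list, among them Cebpd, Clu, Il1rl1, Mgp, Pdgfra and Spp1. Negative ties were shared for 11 genes, 47.8% of the control list and 9.91% of the rIL7 list, among them Ccl8, Cd74, Cxcl9, H2-Ab1 and Tmsb4x.

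Rpl39l had weaker correlations, and its nearest genes were not the same on both sections. Over all genes, rho with Rpl39l had a standard deviation of 0.0235 on the control and 0.0280 on the rIL7 section. For Baiap2l1 it was 0.0322 and 0.0447. Little of the variance of Rpl39l lay above counting, and whether its nearest genes differed beyond counting error was not tested. Its nearest control gene was Rpl19, of the large ribosomal subunit, with rho of 0.0942, against 0.0263 on the rIL7 section. Its nearest gene for rIL7 was S100a6 with 0.133. Over 5401 genes, the rho with Rpl39l on the control and on the rIL7 section had a correlation of 0.0572, against 0.356 for Baiap2l1. Genes share spots and are not independent, so these describe the tables only. Of 78 cytosolic ribosomal protein genes, 70 had rho above 0 with Rpl39l on the control and 69 on the rIL7 section, where over all genes 45.8% and 51.6% did. Their median rho was 0.0342 and 0.0319, against -0.0024 and 0.0011 over all genes, and 0 reached 0.1 in either section. With Baiap2l1, 27 of them had rho above 0 on the control section and 56 on the rIL7 section, where 17 reached 0.1.

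Among the lists with more than 5 genes that passed the minimum, MHC class II had the lowest median rho with both genes on both sections. It had 6 such genes. Their median rho with Rpl39l was -0.0373 on the control and -0.105 on the rIL7 section, and with Baiap2l1 it was -0.0658 and -0.222. Over all genes the medians with Baiap2l1 were 0.0012 and 0.0065. At most -0.1 with Baiap2l1 were 2 of the 6 on the control and 5 on the rIL7 section, and 0 and 3 in interior spots, where the medians were -0.0522 and -0.0972. Of 11 macrophage genes, 0 on the control and 6 on the rIL7 section were at most -0.1 with Baiap2l1, against 0.426% and 2.06% of all genes. The medians of that list were -0.0136 and -0.139. In interior spots 0 and 4 of the 11 reached -0.1, with medians of -0.0209 and -0.0897. For Rpl39l, 0 of the 11 reached -0.1 in either section. Apoe had rho of -0.0111 and -0.0412 with Rpl39l, and C1qa had -0.0017 and -0.0649.

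The fibroblast list was mixed. Pdgfra had rho with Baiap2l1 of 0.152 on the control and 0.136 on the rIL7 section, Dcn had 0.0585 and 0.0580, Col1a1 had -0.0923 and -0.128, and Thy1 had -0.0929 and -0.176. Proliferation genes lay slightly below 0 with Baiap2l1, in 12 of 15 genes on the control and 13 of 15 on the rIL7 section, and 0 reached -0.1. Over all genes 48.3% and 42.1% were below 0 with Baiap2l1. Mki67, a marker of cycling cells, had -0.0498 and -0.0575. The 10 of 12 hypoxia genes that passed the minimum had rho above 0 with Baiap2l1 in both sections, as did 51.5% of all genes on the control and 57.7% on the rIL7 section. On the rIL7 section 3 of the 10, the glycolytic genes Aldoa with 0.140, Pgk1 with 0.106 and Ldha with 0.104, reached 0.1, against 1.48% of all genes. In rIL7 interior spots 9 of the 10 were above 0 and 0 reached 0.1. Of 15 genes of actin protrusion, 0 reached the limit with either gene. Eps8, which encodes a partner of IRTKS in microvilli, had rho with Baiap2l1 of 0.0235 and 0.0690. T cell genes were too sparse for this measure, with 1 of 12 passing the minimum, and 0 of 9 endothelial genes passed.

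Lists too sparse gene by gene could be used as sums. Spots were split into 5 equal groups (quintiles) by the summed thinned UMIs of a list, and the CPM of each gene was taken in each quintile. Spots with equal sums were ordered at random. On the rIL7 section, Baiap2l1 went from 803 CPM in the quintile with fewest macrophage UMIs through 732, 686 and 635 to 469.8 CPM in the quintile with most. The ratio of top to bottom was 0.585 (0.556 to 0.616). Baiap2l1 was thus lower at each step. Rpl39l had 374, 402, 385, 397 and 337 CPM over the same quintiles, lower in the top quintile alone, with a ratio of 0.900 (0.842 to 0.962). Of 373 spots in the top quintile, 177 were edge spots. In interior spots the ratio was 0.695 (0.660 to 0.732) for Baiap2l1 and 1.01 (0.941 to 1.08) for Rpl39l.

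By MHC class II UMIs, both genes were lower in the top quintile of the rIL7 section. Rpl39l had 415, 400.4, 389.98, 364 and 313 CPM from the lowest to the highest quintile, a ratio of 0.753 (0.705 to 0.804). Baiap2l1 had 699, 745, 734, 646 and 483 CPM, a ratio of 0.690 (0.655 to 0.728). The top quintile held 197 edge spots of 373. In interior spots the ratios were 0.837 (0.781 to 0.897) and 0.863 (0.819 to 0.910). On the control section the ratios by MHC class II UMIs were 0.909 (0.854 to 0.968) for Rpl39l and 0.859 (0.820 to 0.899) for Baiap2l1, and by macrophage UMIs 0.963 (0.905 to 1.03) and 0.914 (0.874 to 0.956). Control spots rich in these transcripts were deeper, with a median of 13137.5 UMIs in the top and 8802 in the bottom macrophage quintile, so that UMIs of both genes per spot were higher in the top quintile while CPM was not.

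**Figure D5:**
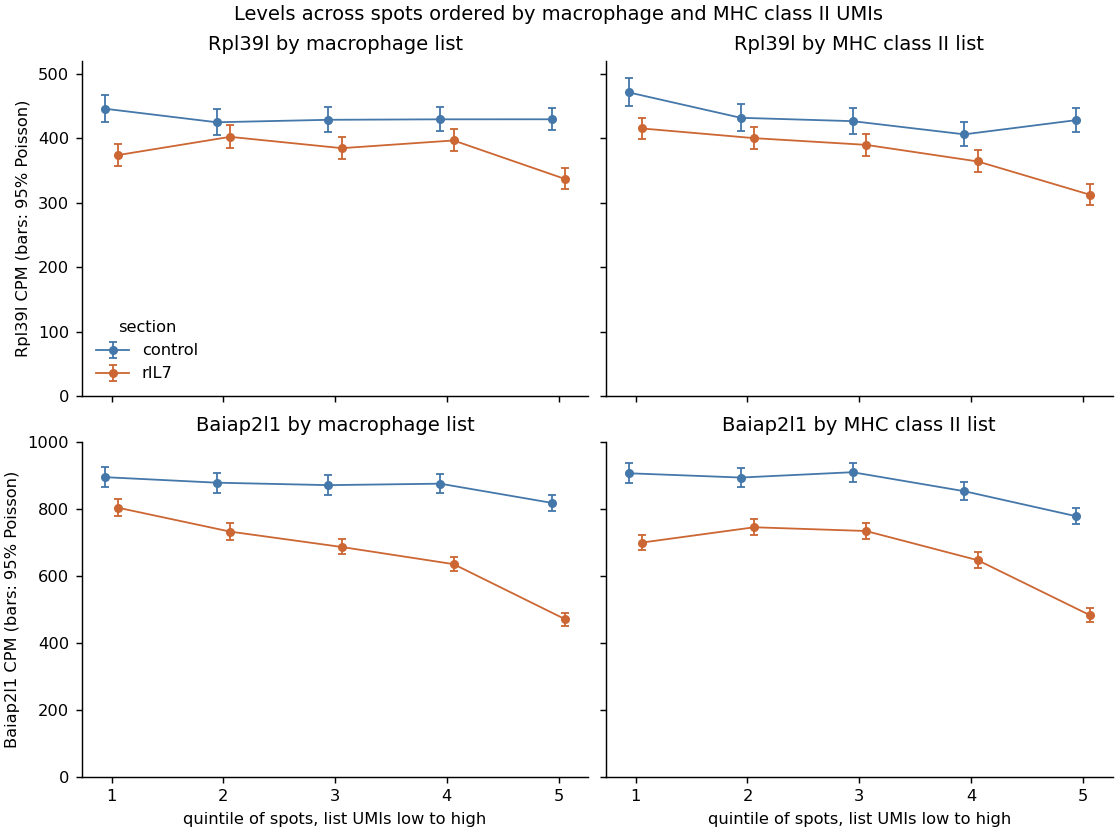
CPM of Rpl39l (top) and Baiap2l1 (bottom) in quintiles of spots ordered by macrophage (left) and MHC class II (right) UMIs, for the control and rIL7 sections, with 95% Poisson intervals as bars. On the rIL7 section Baiap2l1 goes from 803 to 469.8 CPM over the macrophage quintiles, while Rpl39l stays between 337 and 402 CPM.

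T cell and endothelial sums were near 0. Their bottom quintiles had a mean of 0 list UMIs in both sections and were random draws from spots without such UMIs. The top quintiles had means of 2.48 (control) and 5.24 (rIL7) T cell UMIs, and of 2.00 and 2.40 endothelial UMIs. By T cell UMIs, the top to bottom ratio on the rIL7 section was 0.743 (0.706 to 0.782) for Baiap2l1 and 0.818 (0.765 to 0.874) for Rpl39l, and in interior spots 0.887 and 0.959. The control ratios were 0.948 (0.906 to 0.993) and 0.929 (0.871 to 0.991). By fibroblast UMIs, Baiap2l1 had a ratio of 1.11 (1.06 to 1.16) on the control and 0.910 (0.866 to 0.956) on the rIL7 section, where 143 of 373 top spots were edge spots and the interior ratio was 1.05 (0.995 to 1.103). Rpl39l had 1.01 (0.943 to 1.07) and 0.930 (0.872 to 0.992). By endothelial UMIs, Baiap2l1 had 0.911 (0.870 to 0.954) and 0.873 (0.831 to 0.916), and Rpl39l had 1.01 (0.951 to 1.08) and 0.922 (0.865 to 0.983).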

How the data were processed

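Spatial RNA was profiled on 2 tumor sections, control and rIL7, with 1 library each. The authors counted UMIs per gene and spot with SpaceRanger (Space Ranger 1.1.0 in the submitters' processing notes) against mm10, and deposited raw counts for spots over tissue, with barcodes, gene identifiers and array positions. Alignment strand and the treatment of reads that match several genes are not given in the sources used here. Spots with more than 200 genes and under 10% mitochondrial UMIs were kept. Levels are UMIs per 1000000 UMIs of the same spots (CPM), with 95% exact Poisson or Clopper-Pearson intervals, which cover counting error only. For correlations, spots were thinned to 5900 UMIs. Distances are steps on the hexagonal grid from the outer outline of the largest piece. Genes with a mean of 20 CPM were compared between sections and between edge and interior. Gene coordinates come from RefSeq for GRCm38. The genes named are both members, their families, the 10 highest and 10 lowest genes against both members per section, those most like either, and up to 4 per list with the largest absolute mean rho. The members and the 20 gene lists were chosen with earlier results of these data known. Scripts for rho and distance were tested on simulated data. Alternatives used TMM (edgeR 4.0.16) and median-of-ratios scaling (DESeq2 1.42.0), for size factors alone. Tools were Python 3.11.15, numpy 2.4.6 and scipy 1.17.1.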

Additional observations from a re-analysis of the deposited data

Results flagged for a closer look

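Several measures of Rpl39l and Baiap2l1 pointed opposite ways on the control and the rIL7 section. With 1 section per group, none of these differences between sections was tested. The log2 ratio of edge to interior CPM of Rpl39l was 0.036 on the control section, within counting error of 0, and -0.36 on the rIL7 section. The log2 ratio of the top to the bottom quintile by fibroblast UMIs was 0.15 on the control and -0.14 on the rIL7 section for Baiap2l1, and 0.0099 (95% interval -0.084 to 0.104) and -0.10 for Rpl39l. In interior spots the Baiap2l1 value was 0.187 on the control and 0.067 on the rIL7 section, the same sign, with the rIL7 value within counting error of 0. By endothelial UMIs, it was 0.020 (-0.073 to 0.113) on the control and -0.12 on the rIL7 section for Rpl39l. Across spots, rho between Rpl39l and Baiap2l1 was -0.0274 on the control and 0.0347 on the rIL7 section, and the control value changed sign with the thinning. The rIL7 value was -0.0156 in interior spots and -0.0035 after tile means were removed. Across tiles, rho was -0.241 on the control and 0.436 on the rIL7 section.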

How the results depend on the processing

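Both genes were lower on the rIL7 section under the 7 alternatives tried. The log2 ratio left its counting interval with interior spots alone, at -0.13 for Rpl39l and -0.33 for Baiap2l1. TMM and median-of-ratios scaling each moved log2 ratios by 0.01. Shares of spots with a UMI follow depth. Thinned to 3000 UMIs, Rpl39l was seen in 72.0% of control and 66.3% of rIL7 spots, and Baiap2l1 in 91.4% and 83.0%. At 8000 UMIs the shares were 96.6% and 93.0% for Rpl39l, and 99.7% and 98.95% for Baiap2l1. The rIL7 edge to interior log2 ratio of Baiap2l1 was -0.75 with an edge of 1 step and -0.49 with 3 steps. The other edge ratios stayed within their intervals. The rIL7 rho of both genes was 0.0920 at 8000 UMIs, and the other alternatives moved rho by less than the spread of the thinnings, with a sign that changed on the control section and, in interior spots and after removing tile means, for rIL7.

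Counts of genes tied to both depended on depth and limit. On the control section, a limit of 0.05 gave 3 positive and 4 negative genes. On the rIL7 section, positive counts were 0 at 3000 UMIs, 6 at 8000, 1 in another thinning, 29 with residuals, 0 in interior spots, 0 after removing tile means, 0 at a limit of 0.15 and 81 at 0.05. Negative counts were 0 at 3000 UMIs, 9 at 8000, 7, 7 and 8 in other thinnings, 69 with residuals, 0 in interior spots, 0 after removing tile means, 0 at a limit of 0.15 and 89 at 0.05.

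In the quintiles of spots, UMIs per spot in place of CPM reversed 3 control log2 ratios, by macrophage UMIs for Baiap2l1 (0.48) and by MHC class II UMIs for Rpl39l (0.27) and Baiap2l1 (0.19), where the top spots were deeper. They also moved the control values of Rpl39l by macrophage (0.55) and fibroblast UMIs (0.34) and of Baiap2l1 by T cell (-0.15) and fibroblast UMIs (0.48). On the rIL7 section they gave -0.85 for Baiap2l1 by macrophage UMIs, -0.77 for Rpl39l and -0.89 for Baiap2l1 by MHC class II UMIs, and -0.50 and -0.64 by T cell UMIs. With rIL7 interior spots alone, the log2 ratio changed sign for Rpl39l by macrophage UMIs, at 0.011 (-0.088 to 0.110). It also changed sign for Baiap2l1 by fibroblast UMIs, at 0.067 (-0.0076 to 0.141). Both values were within counting error of 0. In the same spots the ratio moved to -0.53 for Baiap2l1 by macrophage UMIs. By MHC class II UMIs it moved to -0.26 for Rpl39l and -0.21 for Baiap2l1. By T cell UMIs it moved to -0.060 and -0.17, and by endothelial UMIs to -0.11 for Baiap2l1. The cause was not tested.

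With a minimum of 5 CPM, 882 genes had a ratio of rIL7 to control of 0.8 or less, and with 50 CPM 206. At the control edge these counts were 1155 and 199, and at the rIL7 edge 2072 and 612, as more or fewer genes were compared. Other tile sizes, tiles of interior spots and interior values of the gene lists were added after the data were seen. With tiles of 12 rows by 24 columns, rho across tiles was -0.467 and 0.282. No paired analysis was possible because each group holds 1 section.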
